A study of Mus musculus with 34 samples.

Results

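Formative and primed pluripotency genes are the genes that mouse embryonic stem (ES) cells switch on as they leave the naive, ground state and acquire the ability to respond to signals for the germ layers. The 9 genes followed here, chosen by name with earlier results of these data known, are Fgf5, Otx2, Pou3f1, Zic2, Zic5, Foxd3, Sox3, Tcf15 and Grhl2. All 9 were found in both kinds of count table, which list 48709 genes in the Control and Mta123KO files and 22018 in the single-mutant files.

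The study asked what the 3 MTA proteins, subunits of the nucleosome remodelling and deacetylation complex NuRD, do in ES cells of strain 129/Ola. Control and Mta123KO cells gave 16 libraries, with 4 for each genotype in each of 2 cultures. The labels call these cultures 2iL (2 kinase inhibitors and LIF, which hold cells in the naive state) and 48 h without inhibitors or LIF, in N2B27 medium that allows neural differentiation. Another 18 libraries, 3 a group and all in 2iL, compared Mta1_del/del with Mta1_flox/flox, Mta2_KO with Mta2_WT, and Mta3_del/del with Mta3_flox/flox. In the study's list of lines the Control cells carry floxed Mta3 alleles, 1 deleted Mta1 allele and intact Mta2, and the Mta123KO cells lack functional copies of all 3 genes. Replicates of Control and Mta123KO are numbered 1_1, 1_2, 2_1 and 2_2, and the first number was read as the cell line, so that each genotype rests on 2 lines. The Mta2_KO cells are listed as 1 line. Nothing in the labels says whether libraries of a group came from separate cultures, so p-values measure the spread between these libraries, which may be technical.

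In the libraries, transcripts of the targeted genes followed the genotype labels. Mta2 was at 4.75 to 8.99 CPM (counts scaled to the total of the library) in the Mta123KO libraries labelled 2iL against 109.8 to 128 in Control, and at 9.21 to 11.7 in Mta2_KO against 225 to 249 in Mta2_WT. Mta3 was at 9.53 to 13.0 CPM in Mta3_del/del against 61.5 to 71.1 in its parent. Mta1 was at 39.2 to 48.0 CPM in Mta1_del/del against 69.4 to 103 in its parent, and at 19.6 to 29.9 in Mta123KO against 34.7 to 48.3 in Control labelled 2iL; counts over the whole gene do not separate deleted from undeleted exons. The libraries held 37855790 to 57602285 gene counts in the Control and Mta123KO set and 13105820 to 40613585 in the single-mutant set.

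For the 16 Control and Mta123KO libraries culture is given one way by the sample labels and the other way by the file names. The labels are followed here, and the text speaks of libraries labelled 2iL or labelled 48 h. Exchanging the labels would reverse the sign of every culture change and of every difference between the genotypes in that change. It would also swap the names of the 2 Mta123KO against Control comparisons. No level would change, nor any difference between the genotypes within the same libraries. Esrrb, a naive transcription factor, was at 42.8 to 72.8 CPM in Control labelled 2iL, at 647 to 727 in Control labelled 48 h and at 505 to 1164 in the 18 single-mutant and parent libraries, where labels and file names do not conflict. Nanog gave 48.2 to 82.9, 866 to 1017 and 931 to 1613 CPM, Klf4 2.91 to 7.78, 117 to 148 and 36.0 to 358, Zfp42 21.5 to 28.0, 67.3 to 82.1 and 77.4 to 819, and Tfcp2l1 29.3 to 41.6, 1632 to 1941 and 794 to 2217 in the same order. These naive genes were thus low in the Control libraries labelled 2iL and high in those labelled 48 h, which lay nearer to the 2iL libraries of the single-mutant set. The 2 sets differ in read type and possibly in library kit, and were normalised separately.

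The members act at different points of the same transition. Fgf5 encodes a secreted growth factor and is a classical marker of the epiblast after implantation. Otx2 and Pou3f1 (also called Oct6) are transcription factors that bind, with Oct4, the enhancers that become active as naive cells convert to epiblast-like cells. Tcf15 is a basic helix-loop-helix factor that primes ES cells for differentiation, and Foxd3 is a forkhead factor needed in the early epiblast. Zic2 and Zic5 encode zinc finger factors and Sox3 a SoxB1 factor, all known from early neural tissue. Grhl2 is a grainyhead factor that opens enhancers of epithelial genes in the formative state.

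In the Control libraries, all 9 members had higher means in the libraries labelled 2iL than in those labelled 48 h. Compared per length of exon, as mean CPM per kb, Zic2 had the highest level in Control labelled 2iL (36.6 ± 5.60, SD, n = 4). Pou3f1 (18.9 ± 4.06), Zic5 (18.6 ± 2.24) and Tcf15 (17.4 ± 1.78) followed and did not differ from each other beyond their spread. Foxd3 came next (9.91 ± 1.69), then Sox3 (4.97 ± 0.739), Otx2 (3.83 ± 1.32) and Grhl2 (3.06 ± 0.647), of which neighbours overlapped within their SDs, and Fgf5 was lowest (1.20 ± 0.362). In Control labelled 48 h Zic2 was again first (18.7 ± 3.98 CPM per kb), followed by Zic5 (9.78 ± 2.45) and Foxd3 (5.29 ± 2.05), and Fgf5 was again last (0.0741 ± 0.0514).

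**Figure D1:**
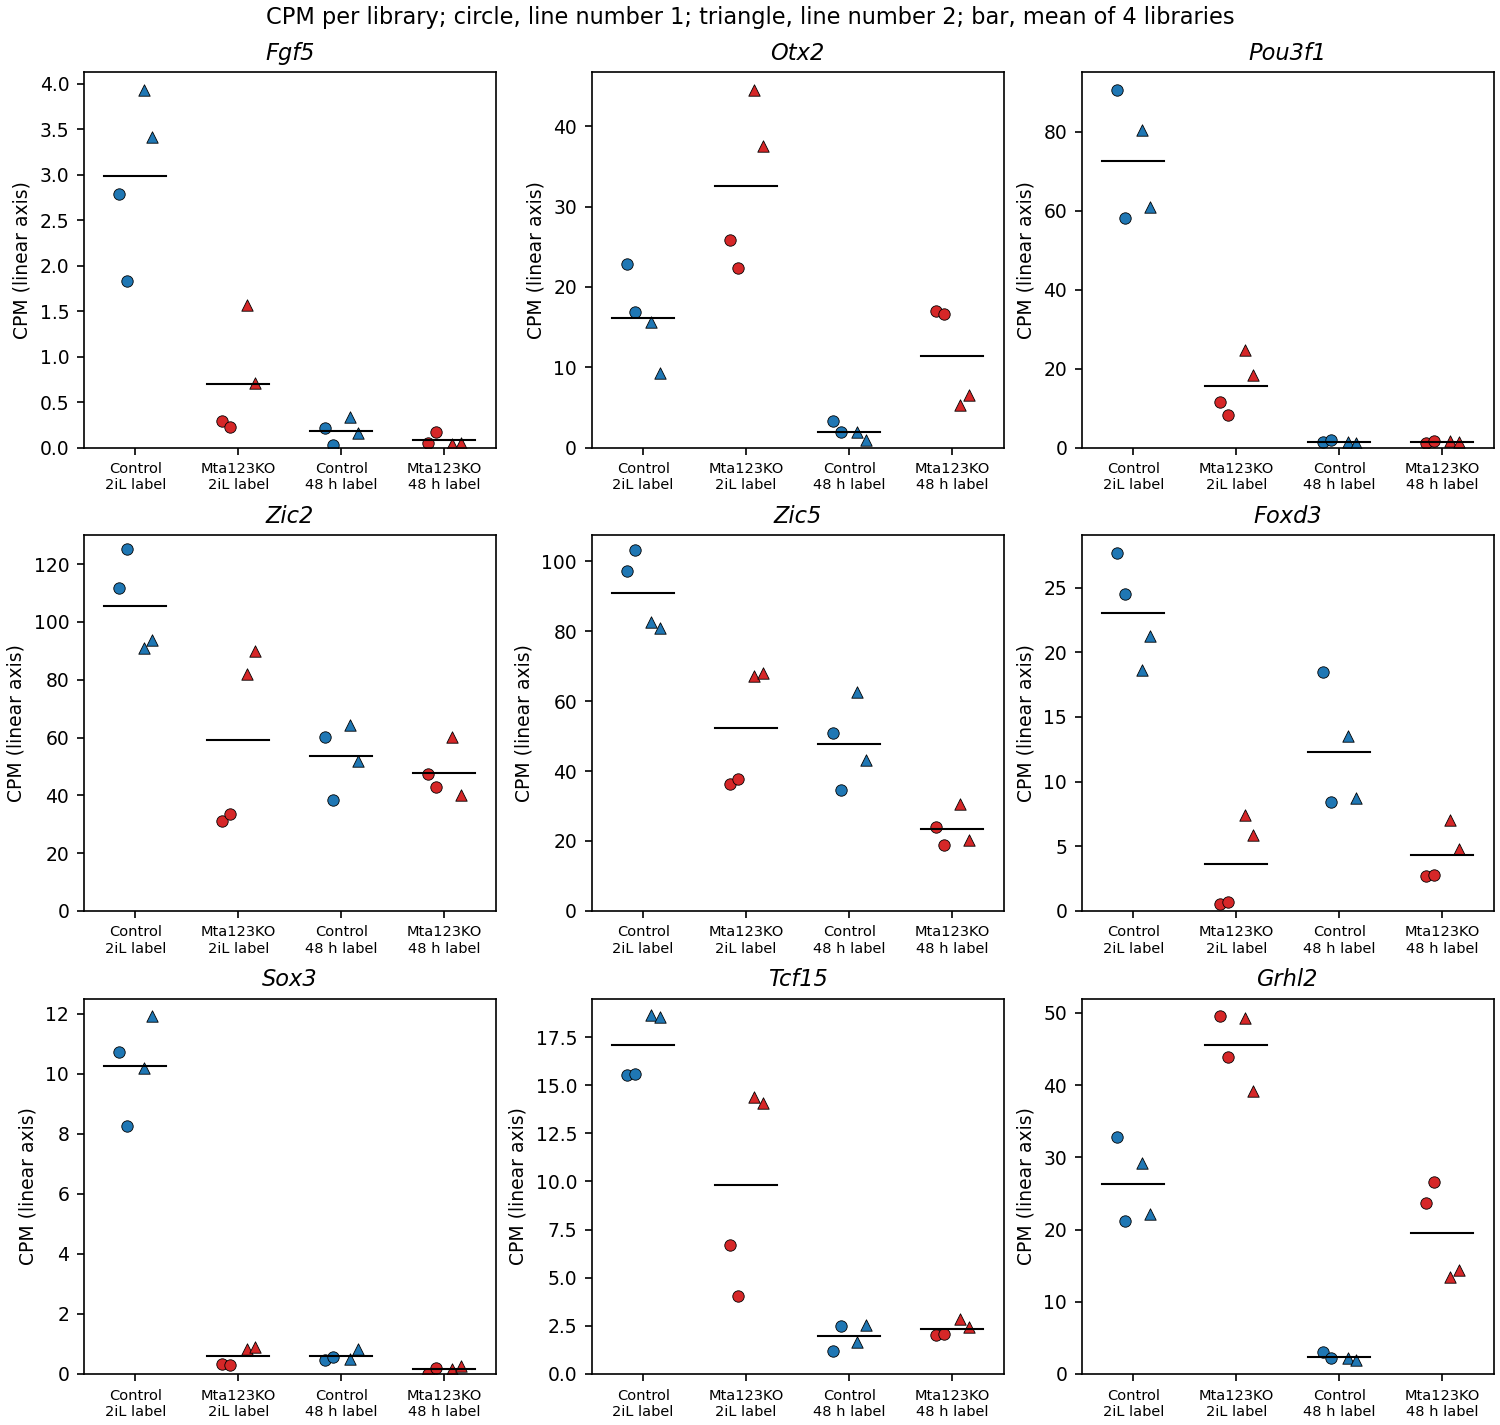
CPM of each member (vertical axis, linear, starting at 0) in the 16 Control (blue) and Mta123KO (red) libraries, by genotype and culture label; circles and triangles mark line numbers 1 and 2, and bars the mean of 4 libraries. Otx2 and Grhl2 were higher in Mta123KO under either label, whereas Fgf5, Pou3f1, Foxd3 and Sox3 were lower in all 4 Mta123KO libraries labelled 2iL than in any Control library labelled 2iL.

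Calls below come from edgeR's quasi-likelihood test with Benjamini-Hochberg adjustment over all genes tested, and a gene is called when its adjusted p is under 0.05 and its absolute log2 fold change above 1. In bulk libraries, fewer cells of a type and less RNA per cell cannot be told apart. Between the culture labels in Control cells, 6 of the 9 members were called lower in the libraries labelled 48 h and none higher, where 13.2% of all 21240 genes tested were called lower and 10.4% higher. The members' median log2 fold change was -3.13, and that of all genes was 0.00576.

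Pou3f1 showed the widest separation. In Control labelled 2iL it was at 90.6, 58.1, 80.6 and 61.0 CPM, and in Control labelled 48 h at 1.44, 2.00, 1.30 and 1.08 CPM. The groups did not overlap, and the log2 fold change was -5.65 ± 0.20 (SE, adjusted p = 4.19e-09). Sox3 was at 10.7, 8.25, 10.2 and 11.9 CPM in Control labelled 2iL and at 0.480, 0.579, 0.506 and 0.821 CPM in Control labelled 48 h. Its log2 fold change was -4.11 ± 0.19 (adjusted p = 1.96e-08).

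Fgf5, the growth factor, was at 2.79, 1.83, 3.93 and 3.42 CPM in Control labelled 2iL and at 0.213, 0.0263, 0.337 and 0.164 CPM in Control labelled 48 h. These low levels stand on 89 to 192 reads and on 1 to 14 reads a library. The log2 fold change was -3.97 ± 0.41 (adjusted p = 9.65e-06). Grhl2 (-3.48 ± 0.18, adjusted p = 4.58e-08), Tcf15 (-3.13 ± 0.21, adjusted p = 3.32e-07) and Otx2 (-2.99 ± 0.35, adjusted p = 2.62e-05) were called in the same direction, again without overlap between the groups.

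Zic2, Zic5 and Foxd3 differed less between the labels in Control. Zic2 was at 112, 125, 90.9 and 93.9 CPM in libraries labelled 2iL and at 60.3, 38.4, 64.4 and 51.8 CPM in libraries labelled 48 h. Its groups did not overlap, yet its log2 fold change of -0.98 ± 0.15 (adjusted p = 0.000206) stayed just under the fold threshold, as did those of Zic5 (-0.93 ± 0.16, adjusted p = 0.000348) and Foxd3 (-0.90 ± 0.23, adjusted p = 0.00565). Leaving out 1 replicate number took these 3 genes across it: all 3 without replicate 2_1, with log2 fold changes of -1.14 (Zic2), -1.13 (Zic5) and -1.04 (Foxd3), Zic2 and Foxd3 without replicate 1_1 (-1.01 and -1.08), and Zic2 without replicate 2_2 (-1.015).

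The summed CPM of 4 members was set beside that of the 12 naive genes in all 34 libraries. The 4 genes were chosen after their values were seen, and Otx2 and Grhl2, higher in Mta123KO, were not among them. All members together summed to 322 to 412 CPM in Control labelled 2iL and 151 to 292 in Mta123KO labelled 2iL. Their sum was 90.6 to 149 in Control labelled 48 h and 90.1 to 121 in Mta123KO labelled 48 h. In the 18 single-mutant and parent libraries it was 110 to 250 CPM, overlapping Mta123KO labelled 2iL. The clearer separation by the 4 genes thus depends on their choice. Fgf5, Pou3f1, Sox3 and Tcf15 together made 83.8 to 119.7 CPM in Control labelled 2iL, 12.8 to 41.5 in Mta123KO labelled 2iL, 3.32 to 5.10 in Control labelled 48 h and 3.28 to 4.72 in Mta123KO labelled 48 h. The 12 naive genes summed to 181 to 272, 472 to 589, 4003 to 4445 and 1996 to 2951 CPM in the same order. In the 18 single-mutant and parent libraries the 4 formative genes summed to 3.06 to 13.5 CPM and the naive genes to 3498 to 6348 CPM, so that Pou3f1, at 0.748 to 6.53 CPM there, never came near its level in Control labelled 2iL.

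**Figure D2:**
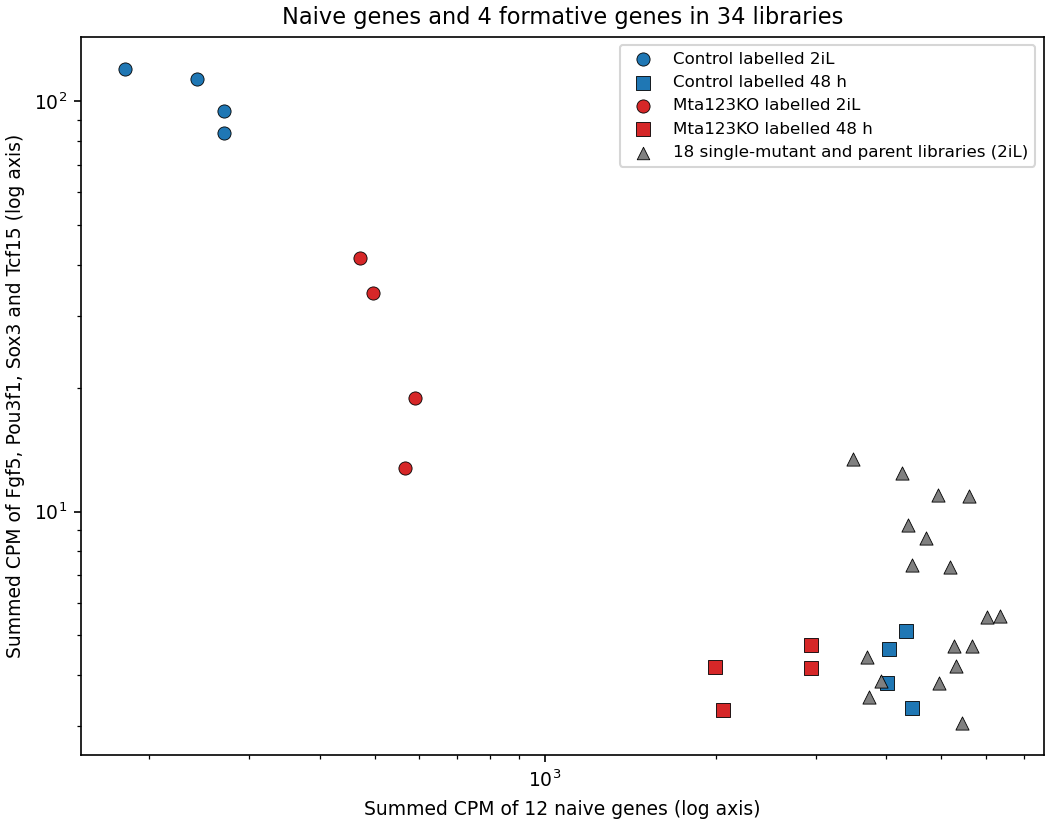
Each point is 1 of the 34 libraries. It is placed by the summed CPM of 12 naive genes (horizontal, log axis) and of Fgf5, Pou3f1, Sox3 and Tcf15 (vertical, log axis). These 4 genes were chosen after their values were seen. By the sum of all members, not drawn, the single-mutant set (110 to 250 CPM) overlapped Mta123KO labelled 2iL (151 to 292). Control libraries labelled 2iL lie at the upper left (83.8 to 119.7 CPM of the 4 genes), Mta123KO libraries labelled 2iL below them (12.8 to 41.5), and the libraries labelled 48 h at the lower right with the 18 libraries of the single-mutant set; the sets were normalised separately.

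In Mta123KO cells, 6 of the 9 members were called lower in the libraries labelled 48 h and none higher, where 4.62% of 21505 genes tested were called lower and 4.84% higher. Their median log2 fold change was -1.52 (all genes 0.00338). Pou3f1 was at 11.5, 8.24, 24.7 and 18.4 CPM in libraries labelled 2iL and at 1.20, 1.73, 1.65 and 1.39 CPM in libraries labelled 48 h (log2 fold change -3.39 ± 0.35, adjusted p = 0.000442). Fgf5 (-3.08 ± 0.76, adjusted p = 0.0209), Tcf15 (-2.05 ± 0.39, adjusted p = 0.00716), Otx2 (-1.52 ± 0.42, adjusted p = 0.0315), Grhl2 (-1.22 ± 0.23, adjusted p = 0.00624) and Zic5 (-1.16 ± 0.25, adjusted p = 0.0128) were also called lower.

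Sox3, at 0.339, 0.294, 0.831 and 0.910 CPM in Mta123KO labelled 2iL, was at 0, 0.197, 0.178 and 0.275 CPM in Mta123KO labelled 48 h. Its log2 fold change of -1.82 ± 0.69 was not called (adjusted p = 0.0959), but it was called with the replicate number as a block (-1.87, adjusted p = 0.0184). Zic2 (-0.31 ± 0.36, adjusted p = 0.585) and Foxd3 (0.26 ± 0.79, adjusted p = 0.847) had no call, and the Mta123KO lines went opposite ways: with line 2 left out Zic2 was at 0.48 and Foxd3 at 2.14, both higher in libraries labelled 48 h, and with line 1 left out Foxd3 was at -0.18. With the libraries of a line summed, which leaves 2 values a group, 0 of the 9 members and 0 of 24445 genes were called in Mta123KO. In Control that fit called 6 members, where 10.3% of 24080 genes were higher and 13.1% lower. Leaving out replicate 2_2 left 2 calls, Pou3f1 and Grhl2, where 3.63% of 21579 genes were higher and 3.14% lower. Fgf5 then had an adjusted p of 0.107, Otx2 0.139, Zic5 0.0839 and Tcf15 0.051. Fgf5 and Otx2 also lost theirs without replicate 1_1 (0.0599 and 0.0525) and without replicate 2_1 (0.0873 and 0.112).

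The difference between the genotypes in the change between culture labels was tested as an interaction. Positive values mean that the log2 fold change, labelled 48 h against labelled 2iL, was higher in Mta123KO than in Control. It called 3 members higher and none lower, against 7.66% of 22973 genes higher and 5.37% lower. The interaction was 2.32 ± 0.68 log2 for Sox3 (adjusted p = 0.0209), 2.28 ± 0.31 for Grhl2 (adjusted p = 7.43e-05) and 2.28 ± 0.42 for Pou3f1 (adjusted p = 0.00106). With the replicate number as a block within each genotype, 5 members were called, Tcf15 (1.24, adjusted p = 0.0107) and Foxd3 (1.58, adjusted p = 0.0189) being added. That fit called 9.5% of 22973 genes higher and 6.99% lower. With the libraries of a line summed only Grhl2 was called, where 1.5% of 25816 genes were higher and 1.08% lower. With Mta123KO line 2 left out 8 members were called, where 9.15% of 23833 genes were higher and 6.67% lower. Sox3 lost its call without replicate 1_2, 2_1 or 2_2, with adjusted p of 0.117, 0.0829 and 0.0768. These 3 genes had different levels behind the same interaction: Sox3 and Pou3f1 were low in Mta123KO labelled 2iL, whereas Grhl2 was high in Mta123KO labelled 48 h.

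In the libraries labelled 2iL, which held the higher level of each member in Control, Mta123KO cells split the members. Fgf5, Pou3f1, Foxd3 and Sox3 were called lower than in Control and Otx2 higher. That is 4 of 9 lower, where 7.43% of 21651 genes were called lower, and 1 of 9 higher, where 13.2% were called higher. The members' median log2 fold change was -0.837 (all genes 0.00585).

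Sox3 was lowered most. Against 8.25 to 11.9 CPM in Control, its values in Mta123KO were 0.339 and 0.294 CPM in line 1 and 0.831 and 0.910 CPM in line 2, a log2 fold change of -4.11 ± 0.34 (adjusted p = 2.65e-05). These Mta123KO values lay around those of Control labelled 48 h, 0.480 to 0.821 CPM. Pou3f1 was at 11.5 and 8.24 CPM in line 1 and 24.7 and 18.4 CPM in line 2, against 58.1 to 90.6 CPM in Control (-2.21 ± 0.32, adjusted p = 0.000489). Both genes were called with the libraries of a line summed as well.

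Foxd3 was at 0.551 and 0.679 CPM in Mta123KO line 1, from 26 and 30 reads, and at 7.38 and 5.83 CPM in line 2, against 27.7, 24.5, 18.6 and 21.3 CPM in Control. Both lines were below every Control library, and they differed from each other by more than their libraries did. The log2 fold change was -2.68 ± 0.71 (adjusted p = 0.0119), and with the libraries of a line summed -2.70 (adjusted p = 0.139), no longer called. Fgf5 was likewise at 0.297 and 0.226 CPM in line 1 and 1.56 and 0.715 CPM in line 2 (-2.10 ± 0.54, adjusted p = 0.0097), and lost its call with summed lines (-2.14, adjusted p = 0.107).

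RefSeq windows from 250 bases before to 50 bases after an annotated start are given for Fgf5 and Foxd3, lowered together, and for Otx2, raised. They come from GRCm38.p6, are printed 5′ to 3′ on the strand of the gene, and have every CG dinucleotide in capitals. Which start these cells used was not tested. Windows matched 4 of the 9 members, Fgf5, Foxd3, Zic5 and Otx2; Pou3f1, Zic2, Sox3, Tcf15 and Grhl2 had none. The first is chr5:98253934-98254233 on the plus strand, the next chr4:99656049-99656348 on the plus strand, and the last chr14:48665060-48665359 on the minus strand, the Otx2 start with the most CG among 4.
Fgf5: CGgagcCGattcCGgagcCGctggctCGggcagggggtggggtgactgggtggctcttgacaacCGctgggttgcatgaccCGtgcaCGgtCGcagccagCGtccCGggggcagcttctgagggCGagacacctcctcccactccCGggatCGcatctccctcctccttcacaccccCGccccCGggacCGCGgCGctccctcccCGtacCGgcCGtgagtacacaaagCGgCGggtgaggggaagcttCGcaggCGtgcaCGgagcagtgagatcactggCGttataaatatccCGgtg
Foxd3: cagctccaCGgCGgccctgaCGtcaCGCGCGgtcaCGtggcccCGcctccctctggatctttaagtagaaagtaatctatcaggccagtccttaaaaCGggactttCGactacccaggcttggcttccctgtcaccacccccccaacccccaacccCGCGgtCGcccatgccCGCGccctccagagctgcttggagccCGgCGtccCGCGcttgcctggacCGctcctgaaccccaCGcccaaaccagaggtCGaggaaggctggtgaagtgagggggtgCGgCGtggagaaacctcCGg
Otx2: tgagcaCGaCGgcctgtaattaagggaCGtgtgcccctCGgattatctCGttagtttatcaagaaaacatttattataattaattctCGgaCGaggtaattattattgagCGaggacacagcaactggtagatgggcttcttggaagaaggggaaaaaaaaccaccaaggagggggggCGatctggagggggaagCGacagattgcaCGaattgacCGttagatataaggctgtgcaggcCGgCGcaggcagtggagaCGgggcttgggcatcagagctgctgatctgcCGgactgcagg

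The Fgf5 window held 29 CG dinucleotides and 68.3% G and C, and the Foxd3 window 25 and 65.7%. The Zic5 window, not printed, held 15 and 62.7%. The Otx2 window shown held 16 and 51.0%, the other Otx2 windows 6 to 11, and the median of all 32851 mouse windows was 7 with 52.7% G and C. Both strands of the windows were searched for TAATCC (OTX), ATGCAAAT (octamer), AACCNGTT (GRHL), CAGCAGG (ZIC), CTTTGAA (TCF and LEF) and CTTTGTT (SOX). The only match in the windows of members was 1 TAATCC on the opposite strand of the Otx2 window shown, beginning 211 bases before the start, and 7.06% of all windows hold that word. The other words occur in 1.74% (octamer), 2.09% (GRHL), 10.5% (ZIC), 5.14% (TCF and LEF) and 5.85% (SOX) of all windows.

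In annotated position, Fgf5 (ENSMUSG00000029337) spans chr5:98254184-98277030 on the plus strand in GENCODE vM21 (GRCm38), Foxd3 (ENSMUSG00000067261) chr4:99656299-99658622 on the plus strand, a gene of 1 exon, and Otx2 (ENSMUSG00000021848) chr14:48657677-48673819 on the minus strand. Pou3f1 lies at chr4:124656807-124660655 (plus) and Sox3 at chrX:60891366-60893430 (minus), each with 1 exon, Tcf15 at chr2:152143561-152149097 (plus) and Grhl2 at chr15:37233036-37363569 (plus). Zic2 (chr14:122475435-122479852, plus) and Zic5 (chr14:122456795-122465677, minus) are neighbours on opposite strands with 9757 bases between them.

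The Zic genes differed between the Mta123KO lines alike. In Mta123KO labelled 2iL Zic2 was at 31.0 and 33.5 CPM in line 1 and at 82.1 and 89.9 in line 2, against 90.9 to 125 in Control. Zic5 was at 36.4 and 37.6 in line 1 and at 67.2 and 68.1 in line 2, against 80.9 to 103 in Control. Neither was called, with log2 fold changes of -0.84 ± 0.34 for Zic2 (adjusted p = 0.0662) and -0.80 ± 0.22 for Zic5 (adjusted p = 0.0134), but both were with line 2 left out (-1.71 and -1.30) and without replicate 2_2 (-1.17 and -1.01). Tcf15, at 6.72 and 4.03 CPM in line 1 and 14.4 and 14.1 CPM in line 2 against 15.5 to 18.6 in Control, was also called only with line 2 left out (-1.66, against -0.80 ± 0.35 and adjusted p = 0.0842 with both lines).

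Line 1 thus held the lower values of Fgf5, Pou3f1, Zic2, Zic5, Foxd3, Sox3 and Tcf15 among Mta123KO libraries labelled 2iL. Among 6 trophoblast markers, Krt7 and Hand1 differed between the lines in the same libraries, and the others are not given by line here. Krt7, an epithelial keratin, was at 39.7 and 44.8 CPM in line 1 and 6.40 and 7.87 in line 2, and Hand1 at 35.1 and 28.2 in line 1 and 4.23 and 4.12 in line 2. All 6 trophoblast markers (Cdx2, Elf5, Gata3, Tfap2c, Krt7, Hand1) were called higher in Mta123KO labelled 2iL, their summed CPM being 55.9 to 169 against 3.44 to 9.15 in Control, and none was at 0 in Mta123KO. Their part in the members' values was not tested.

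Otx2 went the other way. It was at 25.8 and 22.4 CPM in line 1 and at 44.5 and 37.6 CPM in line 2 of Mta123KO labelled 2iL, against 22.8, 16.9, 15.7 and 9.28 CPM in Control. The groups overlapped slightly, and the log2 fold change of 1.01 ± 0.29 (adjusted p = 0.0158) lay at the threshold: it was 0.99 (adjusted p = 0.113) with summed lines, 0.58 (adjusted p = 0.0798) with line 2 left out, 0.81 without replicate 2_1 and 0.74 without replicate 2_2. Grhl2 was at 49.6, 43.9, 49.4 and 39.2 CPM against 32.8, 21.2, 29.3 and 22.2 CPM in Control, without overlap, and its log2 fold change of 0.79 ± 0.15 (adjusted p = 0.00205) stayed under the fold threshold.

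In the libraries labelled 48 h, Otx2 and Grhl2 were the members called higher in Mta123KO, and Zic5, Foxd3 and Sox3 were called lower. Fgf5 did not pass the filter on low counts, with 2 to 8 reads in Mta123KO and 1 to 14 in Control, so 8 members were tested. Of all 21079 genes tested 14.1% were called higher and 5.93% lower, and the median log2 fold change was -0.0495 for the tested members and 0.00526 for all genes.

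Grhl2 was at 23.7 and 26.5 CPM in line 1 and 13.4 and 14.4 CPM in line 2 of Mta123KO, against 3.02, 2.24, 2.17 and 1.97 CPM in Control. Every Mta123KO library lay far above every Control library, with a log2 fold change of 3.07 ± 0.26 (adjusted p = 2.63e-05), and Grhl2 was called under every alternative run for this comparison. Otx2 was at 17.0 and 16.6 CPM in line 1 and 5.36 and 6.54 in line 2, against 3.32, 1.89, 1.90 and 0.891 CPM in Control (2.51 ± 0.49, adjusted p = 0.00243). It had an adjusted p of 0.0549 with summed lines (2.47). The Mta123KO levels of Grhl2 and Otx2 in line 1 reached those of Control labelled 2iL, 21.2 to 32.8 CPM for Grhl2 and 9.28 to 22.8 CPM for Otx2.

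Foxd3 was at 2.68, 2.76, 7.03 and 4.76 CPM in Mta123KO labelled 48 h, whereas Control had 18.5, 8.39, 13.5 and 8.73 CPM, again with no overlap (-1.49 ± 0.36, adjusted p = 0.00763). Zic5 was at 24.0, 18.8, 30.4 and 20.3 CPM against 51.0, 34.5, 62.7 and 43.1 CPM (-1.01 ± 0.20, adjusted p = 0.00275), whereas its neighbour Zic2 was at 47.5, 42.7, 60.2 and 39.9 CPM against 60.3, 38.4, 64.4 and 51.8 CPM (-0.16 ± 0.17, adjusted p = 0.483). Sox3 stood on 0 to 15 reads in Mta123KO and 21 to 35 in Control (-1.80 ± 0.57, adjusted p = 0.0251). With summed lines Foxd3 (-1.58, adjusted p = 0.0567) and Sox3 (-1.81, adjusted p = 0.0688) were no longer called. Sox3 also lost its call without replicate 1_2, 2_1 or 2_2 (adjusted p = 0.0773, 0.0699 and 0.052), and Zic5 fell just under the fold threshold without replicate 1_1 (-0.997) or 2_2 (-0.996) and with line 1 left out (-0.90). Pou3f1 (0.06 ± 0.23, adjusted p = 0.852; -0.11 with spike-in scaling) and Tcf15 (0.27 ± 0.26, adjusted p = 0.414) were not called and lay at the low level of Control.

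**Figure D3:**
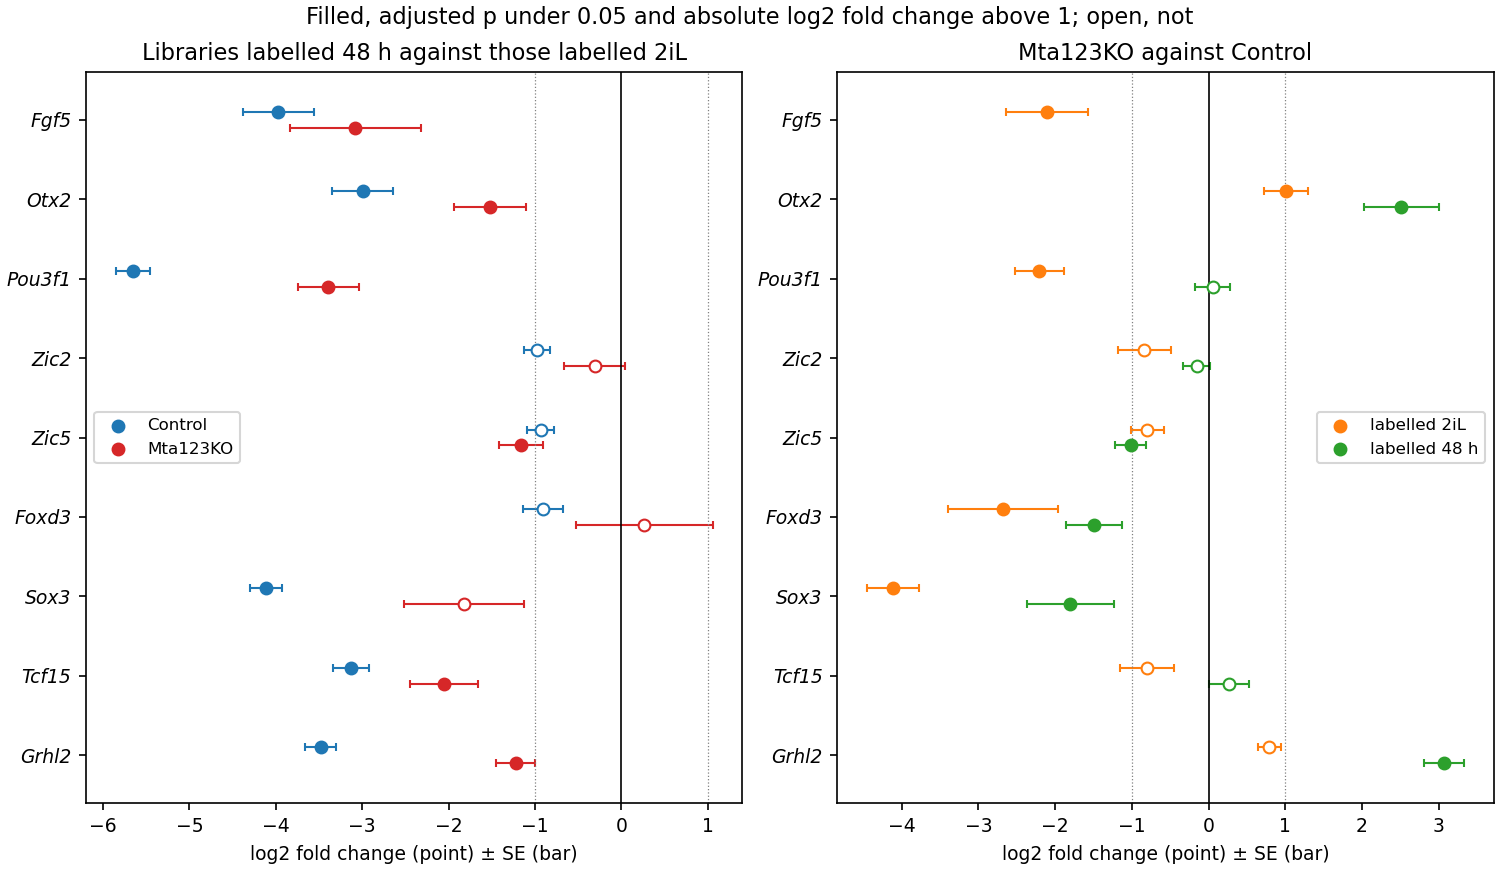
Log2 fold changes (points) with their SE (bars) of the 9 members, between culture labels in Control and Mta123KO (left) and between Mta123KO and Control under each label (right). Filled points were called; in the right panel Otx2 and Grhl2 lie above 0 under both labels (1.01 and 2.51 for Otx2, 0.79 and 3.07 for Grhl2), and Fgf5, not tested among libraries labelled 48 h, has 1 point.

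Genes overlapping the members could share reads with them, since the strand setting of the counting is not stated. Otx2os1, a non-coding gene on the opposite strand of Otx2, was at 1.06 to 2.15 CPM in Mta123KO labelled 2iL and 0.690 to 1.14 in Mta123KO labelled 48 h, against 0.0882 to 0.246 and 0.0938 to 0.145 in Control. It was thus also higher in Mta123KO, at levels below the lowest Otx2 value of those groups, 22.4 and 5.36 CPM. Gm16136, antisense within Grhl2, reached at most 4.14 CPM in Mta123KO labelled 2iL, where Grhl2 was at 39.2 CPM or above.

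Genes whose profile lay nearest to each member were sought over the 16 libraries, by the root mean square (RMS) difference of mean-centred log2 CPM among 17068 genes with a mean of at least 1 CPM. The gene nearest to Otx2 was Grhl2 itself (RMS 0.451 log2), followed by 2610307P16Rik (0.50). Foxd3 had Gm12688 nearest (0.419), a non-coding gene on the opposite strand with 1315 bases between them, at 2.51 to 2.85 CPM in Control labelled 2iL and 0.0453 to 0.684 CPM in Mta123KO labelled 2iL, and then Gm47297 (0.576). Zic2 had Cdyl (0.235), a chromodomain gene, and then 2610035F20Rik (0.264), which lies 235 bases away on the opposite strand. Tcf15 had Hpca (0.298) and Gm14817 (0.317), Sox3 had Vrtn (0.736) and Sall2 (0.767), Pou3f1 had Gpm6a (0.575) and Grm6 (0.594), and Grhl2 had 2610307P16Rik (0.391) and Car3 (0.420). For Zic5 both nearest entries were pseudogenes, Gm12241 (0.158) and Gm6960 (0.233), whose reads could belong to copies elsewhere. With a prior count of 0.5 in place of 2, the nearest genes became Enpp3 and Mmp25 for Pou3f1, Procr and Creb3l1 for Grhl2, and Tex13c2 and Vrtn for Sox3, while those of Otx2, Zic2, Zic5, Foxd3 and Tcf15 were as above. Fgf5 was left out because its mean was under 1 CPM.

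Other formative and primed genes were followed as a list of 20. In Control, 11 of 19 tested were called lower in libraries labelled 48 h and 2 higher (median log2 fold change -1.12), led by Lef1 (-4.67), a Wnt-responsive factor, and the kinase gene Pim2 (-4.04). Fst (1.13) and Tcf7l1 (1.12), a repressor in the Wnt pathway, were the ones called higher. Of all genes, 13.2% were called lower and 10.4% higher there, and 4.62% and 4.84% in Mta123KO between the labels. In Mta123KO the counts were 7 lower and 2 higher of 19, with Etv4 (-2.73) lowest and Fst (1.42) and Tdgf1 (1.41) highest.

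Mta123KO against Control gave 10 of 20 lower and none higher in libraries labelled 2iL (median -0.986), with Sall2 (-3.14) and Lef1 (-2.77) lowest. Of all genes, 7.43% were lower and 13.2% higher in that comparison, and 5.93% and 14.1% in libraries labelled 48 h. In libraries labelled 48 h 5 of 19 of the list were lower and 2 higher (median -0.0326). Those lowest were Etv4 (-2.45), an ETS factor downstream of FGF signalling, and Sall2 (-1.65), and those higher were Dnmt3a (2.04), a de novo DNA methyltransferase, and Sox4 (1.87). The interaction called 8 higher, led by Sox4 (2.95) and Lef1 (2.93), and Etv4 (-1.54) was among those called lower. Of all genes, the interaction called 7.66% higher and 5.37% lower.

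Among 17 relatives of the members, genes of the same families, 12 were tested between Control and Mta123KO. In libraries labelled 2iL 4 were called higher and 2 lower, and in libraries labelled 48 h 3 higher and 2 lower. Of all genes, 13.2% were higher and 7.43% lower in the former, and 14.1% and 5.93% in the latter. Sox1, a relative of Sox3 and an early neural marker, was at 40.7 to 57.3 CPM in Control labelled 2iL and 8.38 to 11.0 in Mta123KO (-2.37), and Fgf4, the FGF that ES cells secrete, was lower in Mta123KO under both labels (-1.96 and -1.36). Grhl1 was higher under both labels (1.39 and 1.33), and Grhl3 was called in libraries labelled 2iL (2.36) but not in those labelled 48 h (0.44). Pou3f3 was at 1.67 to 2.76 CPM in Mta123KO labelled 2iL against 0.184 to 0.267 in Control (3.29), opposite in direction to Pou3f1. Zic1 was called higher in Mta123KO labelled 48 h (2.104), on 11 to 19 reads a library against 0 to 4 in Control. Sox2 was at 77.9 to 191 CPM in Mta123KO labelled 48 h against 229 to 290 in Control (-0.99, adjusted p = 0.0115), just under the fold threshold. Otx1, Pou3f2 and Scx were not called under either label, and Fgf6, Crx, Pou3f4, Zic4 and Foxd2 had too few reads to be tested under either label.

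Of 8 epithelial genes known as targets of Grhl2 or as partners in its programme, 6 were called higher in Mta123KO labelled 2iL and 7 in Mta123KO labelled 48 h, with none lower. Their median log2 fold change was 1.68 and 2.11, beside 0.00585 and 0.00526 for all genes, of which 13.2% and 14.1% were called higher. The list was chosen with earlier results of these data known, and whether these genes depended on Grhl2 here was not tested. Cldn6, a tight junction claudin, was at 6.40 to 8.88 CPM in Control and 44.3 to 90.4 CPM in Mta123KO labelled 2iL (3.13), and at 1.95 to 3.12 and 62.2 to 111 CPM in libraries labelled 48 h (5.24). Esrp1, an epithelial splicing regulator, was at 0.684 to 1.19 CPM in Control labelled 48 h and 13.4 to 17.4 CPM in Mta123KO (3.97), and Cldn7 rose by 2.62 log2 in libraries labelled 2iL. In Control the libraries labelled 48 h had less Esrp1 (-3.76), Epcam (-2.23) and Cldn6 (-1.76) and more Cldn4 (1.10), another claudin, while in Mta123KO none of the 8 was called between the labels. Trophoblast markers were called higher in 3 of 5 tested in Mta123KO labelled 48 h, with sums of 61.8 to 168 CPM against 65.0 to 86.8 in Control, and their part in these values was not tested.

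**Figure D4:**
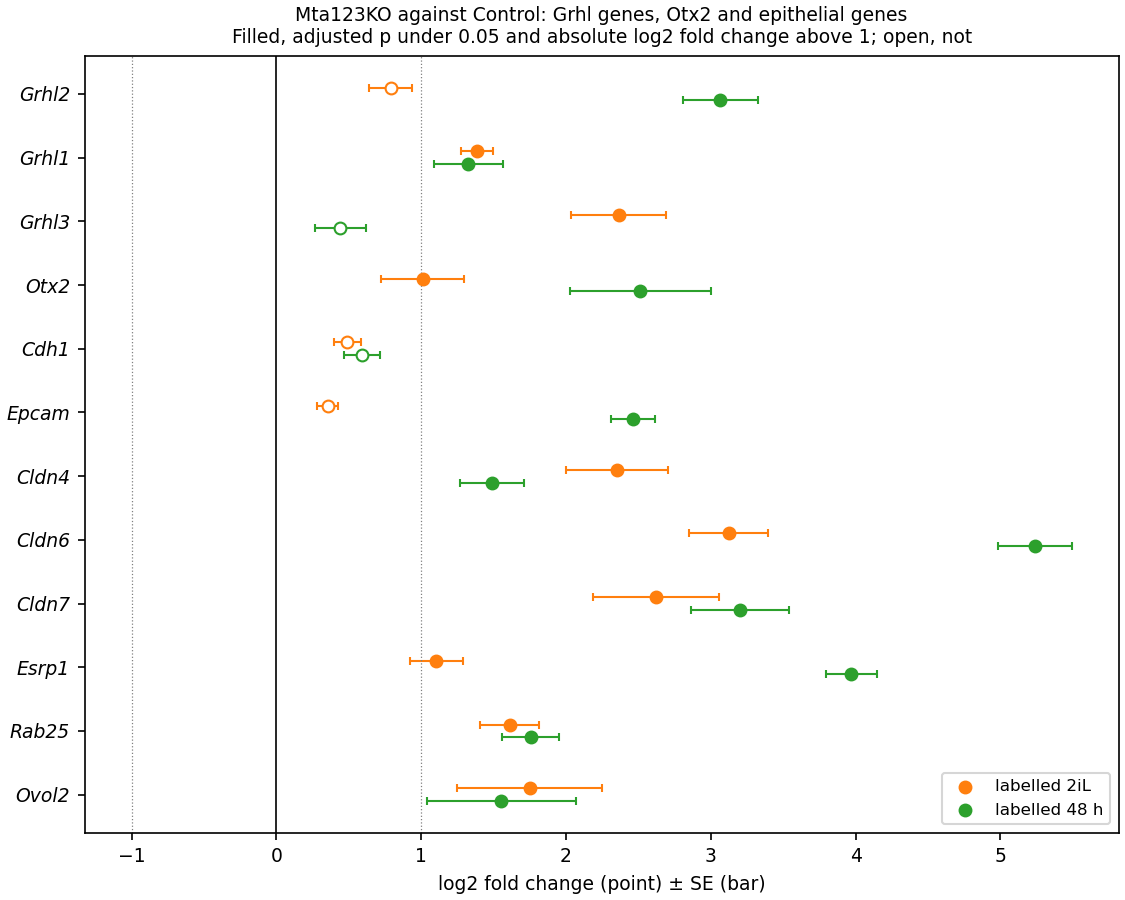
Log2 fold changes (points) with their SE (bars) in Mta123KO against Control, for the 3 grainyhead genes, Otx2 and 8 epithelial genes, in libraries labelled 2iL (orange) and 48 h (green); filled points were called. All values lie above 0, and Cldn6 has the highest value under each label (3.13 and 5.24).

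Lists of markers of other cell types gave mixed counts, to be read beside the shares of all genes called. In Control between the labels 10.4% of all genes were called higher and 13.2% lower, and in Mta123KO 4.84% and 4.62%. For Mta123KO against Control the shares were 13.2% and 7.43% labelled 2iL, and 14.1% and 5.93% labelled 48 h. Of 7 neural progenitor genes tested, 4 were lower in Control labelled 48 h, and 3 were lower in Mta123KO labelled 2iL than in Control, with summed CPM of 34.3 to 45.1 against 76.5 to 98.3. The 6 primitive endoderm genes summed to 8.60 to 22.0 CPM in Control and 16.7 to 26.7 in Mta123KO labelled 2iL, with 2 called higher and 2 lower, the 6 mesendoderm genes to 3.65 to 4.67 and 9.62 to 15.0, with 1 higher of 4 tested, and the 5 fibroblast genes to 2.57 to 5.38 and 6.50 to 7.70, with 3 higher and 1 lower of 4. Of 8 genes induced by ERK signalling, which 2iL culture blocks, 5 were lower in Control labelled 48 h than in Control labelled 2iL (median -1.64) and 4 in Mta123KO (median -0.630). The naive list of 12 was higher in Control labelled 48 h in 12 of 12. Of 5 general pluripotency genes, 1 was higher and 1 lower in the same comparison. In Mta123KO labelled 2iL 5 of the 12 naive genes were higher than in Control, and in Mta123KO labelled 48 h 5 were lower.

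Single deletions were compared with their parents in 2iL, where Zic2 and Zic5 were at 28.4 CPM or more in every library. Foxd3 (3.90 to 37.9 CPM) and Grhl2 (2.53 to 29.0 CPM) varied between libraries, and the other members stayed at 7.27 CPM or below. Mta2_KO against Mta2_WT gave calls for 2 of 8 members tested: Otx2 was higher and Foxd3 lower, the directions seen in Mta123KO. As Mta2_KO is listed as 1 line, an effect of the deletion cannot be told apart from a difference between lines. Of 15602 genes tested, 5.31% were called higher and 6.04% lower. Otx2 was at 1.21, 0.961 and 0.880 CPM in Mta2_KO and 0.545, 0.418 and 0.496 CPM in Mta2_WT, from 16 to 47 reads (log2 fold change 1.08 ± 0.27, adjusted p = 0.0101). Foxd3 was at 3.90, 4.63 and 4.63 CPM against 9.29, 8.29 and 9.0 CPM (-1.01 ± 0.11, adjusted p = 6.2e-05). The groups did not overlap for either gene, but both sat at the fold threshold, and a fit of all 18 libraries together called neither (1.08, adjusted p = 0.203, and -0.9999, adjusted p = 0.113). Without replicate 1 neither was called (Otx2 1.01, adjusted p = 0.0887; Foxd3 -0.90), and without replicate 2 Otx2 was not (1.01, adjusted p = 0.063).

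Grhl2 was lower in Mta2_KO, at 2.54, 2.53 and 2.74 CPM against 4.24, 3.63 and 3.85 CPM (-0.58 ± 0.13, adjusted p = 0.0047, under the fold threshold), the opposite direction to Mta123KO. Zic5 was at 81.5, 87.8 and 85.3 CPM against 66.0, 69.2 and 60.0 CPM (0.39 ± 0.05, adjusted p = 0.00022), also under the fold threshold. That direction too was opposite to Mta123KO. Fgf5, Pou3f1, Zic2 and Tcf15 had adjusted p between 0.125 and 0.815, and Sox3, with 8 to 12 reads a library, was not tested. The epithelial genes included 3 of 8 called higher in Mta2_KO, led by Esrp1 (3.19), at 4.84 to 5.41 CPM against 0.523 to 0.631 CPM, and Rab25 (2.11). Of the other formative genes 4 of 19 were lower, with Fst (-3.14) and Sox4 (-1.47) lowest.

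Mta1_del/del libraries gave no call for any of the 9 members, and for 0% of 14561 genes in either direction. DESeq2 also called 0 genes, and 50 genes had an unadjusted p under 0.05. Libraries of 1 group differed widely: Foxd3 was at 24.0, 11.1 and 7.45 CPM in Mta1_del/del and 16.6, 37.9 and 10.1 CPM in its parent, and Grhl2 at 7.52, 29.0 and 14.3 CPM, its parent having 7.31, 11.3 and 9.68 CPM. Log2 fold changes of the members ranged from -1.17 ± 0.47 for Fgf5 to 0.84 ± 0.49 for Grhl2, and a difference of the size seen in Mta2_KO was not detectable with this spread. Mta1 itself (-0.97 ± 0.18) did not pass the adjustment either.

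Mta3_del/del libraries also gave no call for the 9 members, where 0.812% of 15522 genes were called higher and 5.25% lower. The counts behind these shares, 126 higher and 815 lower, became 0 and 2 without replicate 1 and 1 and 1 without replicate 3, and 246 and 1097 without replicate 2. Fgf5 was at 0.221, 0.434 and 0.302 CPM against 0.827, 0.670 and 0.590 CPM (-1.14 ± 0.47, adjusted p = 0.122), without overlap but from 6 to 19 reads. Foxd3 (-0.03 ± 0.14) and the Zic genes (0.01 ± 0.13 for Zic2 and -0.04 ± 0.14 for Zic5) had estimates near 0 and small errors, and the remaining members lay between -0.88 ± 0.51 (Sox3) and -0.37 ± 0.19 (Grhl2). Esrp1 was the epithelial gene called (1.19) and Etv4 the formative gene called (-1.20). Differences between the single mutants were not tested.

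**Figure D5:**
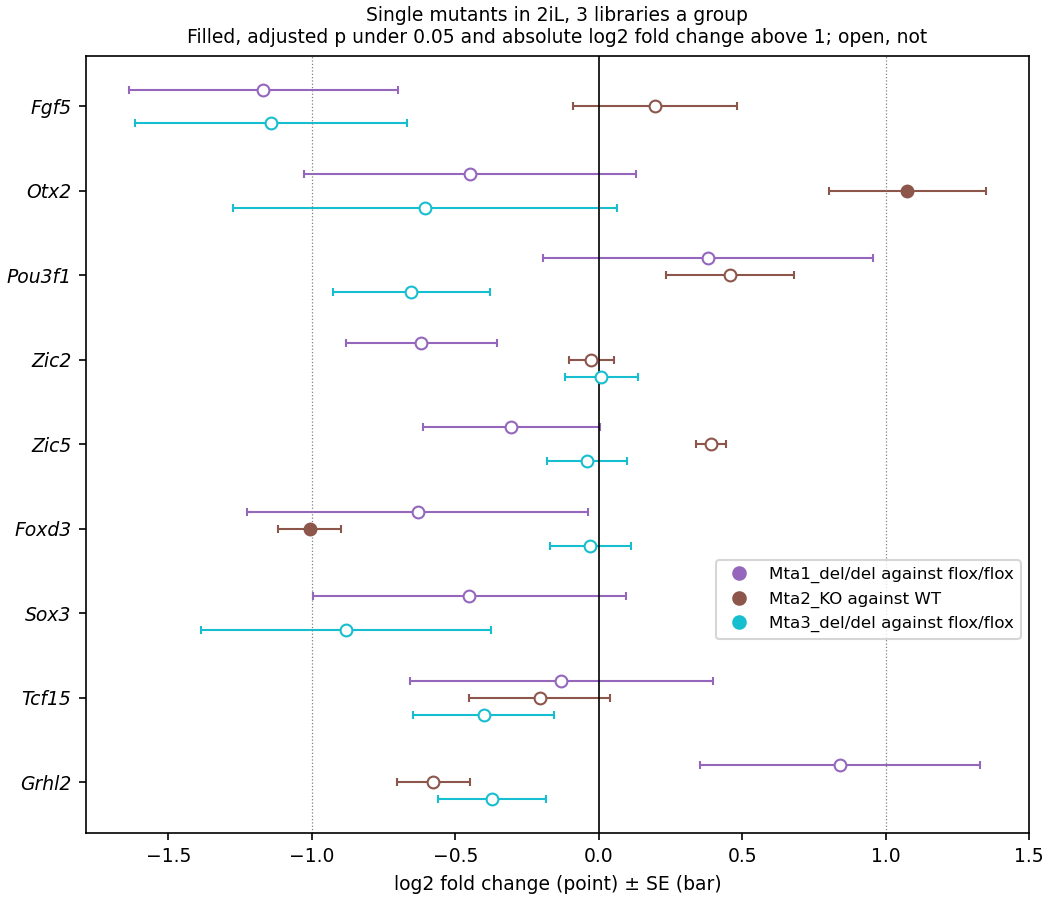
Log2 fold changes (points) with their SE (bars) of the 9 members in each single mutant against its parent in 2iL, 3 libraries a group. Filled points, called, are Otx2 (1.08) and Foxd3 (-1.01) in Mta2_KO; Sox3 was not tested in Mta2_KO.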

How the data were processed

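RNA was sequenced from 34 libraries of mouse ES cells. The authors trimmed reads with Trim Galore!, aligned them to GRCm38/mm10 with TopHat2 and assigned them to Ensembl genes with featureCounts; the deposited values are raw counts, 1 file a library, and the strand and multimapping settings are not given in the sources used here. The 16 Control and Mta123KO files also hold 92 spike-in rows, which stayed out of library sizes and tests. CPM used TMM-scaled totals within each set. Each comparison used its own groups in edgeR 4.0.16 (filterByExpr, TMM, quasi-likelihood F test), with standard errors taken from the F statistic. The fit was tested on simulated data for 3 comparisons, and for Mta123KO against Control labelled 2iL (21690 genes) 89% of genes changed 2-fold and 98% of those changed 4-fold were recovered. The simulated libraries were independent, with a fixed dispersion and no cell lines. The real Mta123KO libraries differed more between lines than within them, so these rates do not describe that comparison. DESeq2 1.42.0 served as an alternative, in R 4.3.3. Counting error limits genes with few reads, so reads are given for them.

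Same-numbered libraries deviated together between culture labels (correlation of deviations 0.346 to 0.406 in Control and 0.641 to 0.686 in Mta123KO) and for Mta1 (0.523 to 0.715), so blocked values stand beside results where the call changes. No pair of libraries of a group agreed within sampling noise (chi-square per degree of freedom 4.41 or more), so none was taken as the same library sequenced again. This check cannot tell separate cultures from separate libraries of 1 culture. In Mta2_KO, replicates 1 and 3 gave 4.41, and each gave 74.7 or more with replicate 2. In Mta2_WT, replicates 1 and 2 gave 8.63, and each gave 187 or more with replicate 3. Libraries of a line were still not independent. In Mta123KO the chi-square was 6.32 to 19.4 within a line and 87.0 to 113 between lines under the 2iL label. Under the 48 h label it was 8.88 to 12.2 and 93.1 to 106. In Control it was 6.84 to 15.6 and 17.6 to 34.8 (2iL label), and 17.1 to 19.0 and 19.4 to 30.6 (48 h label). The main tests count each library as a sample and so overstate the replication. Named genes were the 9 members, the MTA genes, 5 naive genes, up to 2 called genes in each direction of a list, relatives of the members, and the 2 nearest profiles of each member. The members and lists were chosen with earlier results of these data known. A relative of the members is not reported here.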

Additional observations from a re-analysis of the deposited data

Results flagged for a closer look

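Of the 36 combinations of member and group of 4 libraries that were examined for a library standing apart, 1 was found, and chance alone gives about 1 in 20. Fgf5 in Mta123KO labelled 48 h was at 0.176 CPM in replicate 1_2, from 8 reads, while the other 3 libraries had 2 to 3 reads.

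The change between culture labels differed between the genotypes for 3 members by edgeR's interaction test. Sox3 had an interaction of 2.32 log2 (adjusted p = 0.0209), Grhl2 of 2.28 (adjusted p = 7.43e-05) and Pou3f1 of 2.28 (adjusted p = 0.00106). For each, libraries labelled 48 h lay below those labelled 2iL by less in Mta123KO than in Control.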

How the results depend on the processing

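The members called with the replicate number as a block were 6 in Control between the labels, 7 in Mta123KO, 5 in each Mta123KO against Control comparison and 5 in the interaction (3 without the block), and 0, 2 and 0 in the Mta1, Mta2 and Mta3 comparisons. Of all genes, the block called 10.5% higher and 13.6% lower in Control between the labels, and 6.36% and 6.01% in Mta123KO. The shares were 12.4% and 7.21% for Mta123KO against Control labelled 2iL, 13.5% and 5.65% labelled 48 h, and 9.5% and 6.99% in the interaction. They were 0% and 0%, 5.26% and 5.96%, and 0.734% and 5.59% in the Mta1, Mta2 and Mta3 comparisons. Outside the culture change in Mta123KO and the interaction the block changed no call of a member; same-numbered libraries of Mta123KO and Control did not deviate together (correlations -0.286 to 0.0416), nor did all pairs for Mta2 (-0.205 to 0.379) and Mta3 (-0.0623 to 0.362). With the libraries of a line summed the counts were 0 for the culture change in Mta123KO, 2 in each Mta123KO against Control comparison and 1 for the interaction. The shares of all genes called higher and lower were then 0% and 0% for that culture change and 1.5% and 1.08% for the interaction. For Mta123KO against Control they were 7.68% and 3.91% labelled 2iL, and 9.07% and 3.44% labelled 48 h. Chosen after seeing the data, leaving out Mta123KO line 2 gave 3 for the culture change in Mta123KO and 8 for the interaction. Of all genes, 6.75% were then higher and 6.99% lower in the former, and 9.15% and 6.67% in the latter. A fit of all single-mutant libraries gave 0 for Mta2_KO, where 3.71% of all genes were higher and 4.03% lower.

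Leaving out 1 replicate number gave 6 to 9 members called in Control, 2 to 6 in Mta123KO, 4 to 6 and 3 to 5 for Mta123KO against Control labelled 2iL and 48 h, 2 to 3 for the interaction and 0 to 2 for Mta2_KO. The shares of all genes called higher were 10.2% to 10.7%, 3.63% to 3.99%, 11.8% to 13.6%, 12.6% to 14.3%, 5.12% to 6.27% and 4.48% to 6.02% in the same order. Those called lower were 12.9% to 13.5%, 2.99% to 3.54%, 6.66% to 7.66%, 5.27% to 5.94%, 3.65% to 4.6% and 5.53% to 6.03%.

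Sign changes in log2 fold change all belonged to members that were not called. With 1 replicate number left out at a time the ranges were -0.53 to 0.039 for Zic2 in Mta123KO between the labels, -0.042 to 0.16 for Pou3f1 in Mta123KO labelled 48 h, -0.20 to 2.09 for Fgf5 and -0.44 to 0.014 for Zic5 in the interaction, -1.38 to 0.22 for Foxd3 and -0.70 to 0.048 for Zic5 in Mta1_del/del, -0.44 to 0.035 for Tcf15, -0.098 to 0.36 for Fgf5 and -0.13 to 0.063 for Zic2 in Mta2_KO, and -0.11 to 0.057 for Foxd3, -0.15 to 0.18 for Zic5, -0.58 to 0.035 for Otx2 (not tested without replicate 2) and -0.11 to 0.23 for Zic2 in Mta3_del/del. Spike-in scaling gave -0.11 for Pou3f1 in Mta123KO labelled 48 h. Leaving out Mta123KO line 1 gave -0.18 for Foxd3 between the labels and -0.46 for Fgf5 in the interaction, and leaving out line 2 gave 0.48 for Zic2 between the labels and 0.18 for Zic5 in the interaction. In Mta3_del/del Foxd3 was at 0.0022 by DESeq2, 0.014 without the filter and 0.028 in the fit of all libraries, where Zic5 was at 0.012. The cause of these shifts was not tested.

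Against TMM, spike-in scaling moved all genes by a median of 0.176 log2 in Control between the labels, -0.182 in Mta123KO against Control labelled 48 h and -0.22 in the interaction, and it changed no call of a member. RLE scaling changed none either. Fgf5 in libraries labelled 48 h and Sox3 in Mta2_KO had too few reads to be tested.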

Other observations

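The parent lines of the single mutants, all in 2iL, differed from each other in the members. Otx2 was at 2.24 to 6.05 CPM in Mta1_flox/flox, 0.418 to 0.545 in Mta2_WT and 0.354 to 0.620 in Mta3_flox/flox. Foxd3 was at 10.1 to 37.9 CPM in Mta1_flox/flox, 8.29 to 9.29 in Mta2_WT and 24.1 to 26.3 in Mta3_flox/flox. Pou3f1 was highest in Mta3_flox/flox, at 3.51 to 6.53 CPM, against 0.750 to 1.83 in Mta1_flox/flox and 0.941 to 1.15 in Mta2_WT. Differences between parent lines were not tested.

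Foxd1, a forkhead relative of Foxd3, was at 10.4 to 31.3 CPM in Mta123KO labelled 48 h against 0.675 to 1.76 CPM in Control, and at 0.339 to 0.780 against 0.0995 to 0.246 CPM in libraries labelled 2iL. Its log2 fold changes were 4.23 and 1.57, opposite in direction to those of Foxd3 under both labels.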
